A study of Zea mays with 18 samples.

Results

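The comparison described here sets the maize line in which the phytoglobin gene ZmPgb1.1 was down-regulated (Pgb1.1A, line A) against wild type (WT), both after 12 h of hypoxia. It holds 6 of the 18 libraries of the series, chosen by their labels: A_12h replicates 1 to 3 and WT_12h replicates 1 to 3. The sequenced material was total RNA of quiescent centres dissected from root tips of seedlings that were 5 days old. For both groups the roots had been submerged in diluted Murashige and Skoog solution supplied with 4% oxygen in nitrogen. The other 12 libraries are the same lines at 0 h under normoxia (A_0h and WT_0h) and a line overexpressing ZmPgb1.1 (Pgb1.1S) at 12 h under hypoxia and at 0 h (S_12h and S_0h), with 3 libraries per group. The labels give neither the construct and promoter used to reduce ZmPgb1.1 nor the number of independent transformants. They are also silent on whether replicates were grown or dissected separately. A p-value here sets a difference between groups against the spread of libraries within groups, and that spread may be technical.

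The quiescent centre is a small group of slowly dividing cells that maintains the stem cells around it in the root tip. Phytoglobins are plant hemoglobins that bind oxygen tightly and convert nitric oxide to nitrate, and class 1 members are known to be induced when oxygen is low. Through nitric oxide they act on hormone signalling and on cell survival in flooded roots. The comparison asks which transcripts of the quiescent centre differed under hypoxia when this phytoglobin was reduced. The deposited counts and the reference table used here do not pair the gene IDs with names, so genes are given by ID and without a function. For the same reason neither the level of ZmPgb1.1 nor markers of the quiescent centre could be used to check the labels.

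The 6 libraries held between 35441975 counts, in A_12h replicate 3, and 89759585 counts, in WT_12h replicate 1. They had any count at all in 21120 to 22002 genes. A floor of 3 counts, at or under which a gene is not called detected, equals 0.0334 CPM (counts per 1000000) in the deepest and 0.0846 CPM in the shallowest of them. In each group replicate 3 stood apart. A_12h replicate 3 had its highest Spearman correlations, over log2 CPM of all genes tested, with S_12h replicates 1 and 2 (0.9974 and 0.9973), against at most 0.9718 with the other A_12h libraries. WT_12h replicate 3 was closest to S_0h replicates 1 and 2 (0.9980 and 0.9968), against at most 0.9813 with the other WT_12h libraries. Replicates 1 and 2 correlated at 0.9981 in A_12h and at 0.9966 in WT_12h. The comparison is therefore given with all 3 libraries a side and also without replicate 3 of both groups. Similar departures occurred in the other 4 groups, where A_0h replicate 3 was closest to A_12h, WT_0h replicate 2 to WT_12h, S_0h replicate 3 to WT_0h and S_12h replicate 3 to A_0h. For each of these 6 libraries, 1 per group, the 2 highest correlations were with libraries of that other group. They form closed cycles, one through A_12h, S_12h and A_0h and one through WT_12h, S_0h and WT_0h. Whether labels were exchanged among these libraries was not tested, and every mean, SD and call given here rests on the labels as deposited.

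Under hypoxia, more transcripts were higher than lower in line A relative to WT, and the larger differences were mostly rises. With all libraries, 1356 of 20945 genes tested (6.47%) had an adjusted p under 0.05, 813 higher (3.88%) and 543 lower (2.59%) in A_12h. At an unadjusted p under 0.05 there were 5359 genes (25.6%), and in 7691 genes (36.7%) the groups did not overlap. Among the called genes, 436 of the higher genes and 40 of the lower genes differed by at least 2-fold. Without replicate 3 of both groups, 1398 of 21278 genes (6.57%) passed, 858 higher (4.03%) and 540 lower (2.54%). A total of 806 genes passed in both versions, all with the same direction, which was 59.4% of the first list and 57.7% of the second. Since both versions use replicates 1 and 2, the second is no separate support for the first. In bulk RNA of this kind, fewer cells of a type and less RNA per cell cannot be told apart.

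Both counts rested on the spread of all groups, and the count with all libraries also on single libraries. The count with all libraries was 113 without WT_12h replicate 1, 86 without WT_12h replicate 2, 471 without A_12h replicate 1, 456 without A_12h replicate 2 and 847 without A_12h replicate 3. It rose to 1706 without WT_12h replicate 3. For the count without replicate 3 of both groups no such numbers are given, because leaving out 1 more library leaves a lone library in its group. This does not mean that it depends less on single libraries. Leaving out the 6 libraries named above, whose 2 nearest libraries belong to 1 other group, gave 9884 genes (5425 higher, 25.8% of genes tested, and 4459 lower, 21.2%). These libraries were picked for lying far from their own group, which lowers the spread by construction.

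The abundant genes that separate the groups were taken as those with a mean of at least 10 CPM in the higher group, no overlap between the 3 A_12h and the 3 WT_12h libraries, and an adjusted p under 0.05 with the same direction in both versions. Abundance here is in counts per library and not per length, so levels are compared between libraries and not between genes. Of 12578 genes at 10 CPM or more, 1098 passed the threshold with all libraries (8.73%) and 5584 did not overlap (44.4%). In all 668 genes (5.31%) met every criterion, 358 of them higher (2.85%) and 310 lower (2.46%) in A_12h. This balance varied with the libraries in the fit, with 3427 higher and 3704 lower without the 6 libraries and 556 higher and 269 lower when only A_12h and WT_12h were fitted. Another 130 genes met every criterion except abundance. The least abundant gene inside the limit averaged 10.03 CPM in A_12h and 2.13 CPM in WT_12h, and the most abundant one outside it averaged 9.92 CPM in A_12h and 5.60 CPM in WT_12h. The larger of the adjusted p values of the 2 versions was 0.0499 for the last gene inside the threshold and 0.0502 for the first one outside. The set depended on each of the 4 libraries that are in both versions. The first version called 113 genes without WT_12h replicate 1 and 86 without WT_12h replicate 2. It called 471 without A_12h replicate 1 and 456 without A_12h replicate 2. Each separating gene needs this call, so fewer than 668 can remain in each case. How many remain is not given, because the version without replicate 3 then has a lone library in its group.

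The 2 separating genes with the largest rise and the 2 with the largest fall are described first. Zm00001d022081.RefGen_V4 was at 48.9, 51.1 and 16.9 CPM in A_12h replicates 1 to 3. In WT_12h it had 0, 0 and 2 counts. It was thus well measured in every A_12h library, lowest in replicate 3, and at or under the 3-count floor in every WT_12h library. The pooled ratio of A_12h over WT_12h was 5170 (8497 counts against 2), with an exact 95% interval of 1431 to 42697 that covers counting error only. The fitted log2 fold change was 11.89 (SE 2.20, adjusted p = 0.0107) with all libraries and 14.76 (SE 3.45, adjusted p = 0.0333) without replicate 3 of both groups. These fitted values depend on the prior count because WT_12h is near 0. The call was lost without WT_12h replicate 1 (adjusted p = 0.0735) or replicate 2 (0.0738) and by limma-voom (0.189).

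Zm00001d042209.RefGen_V4 was at 30.8, 30.4 and 19.5 CPM in A_12h replicates 1 to 3, and at 0.328, 0.299 and 0.261 CPM in WT_12h replicates 1 to 3. All 3 A_12h libraries were far above all 3 WT_12h libraries, and replicate 3 was the lowest library in each group. The means were 26.9 ± 6.41 CPM in A_12h and 0.296 ± 0.0333 CPM in WT_12h (SD, n = 3), a 90.9-fold ratio. On the log2 scale the difference was 6.50 (SE 0.89, adjusted p = 0.00302), and 6.59 (SE 1.16, adjusted p = 0.0138) without replicate 3 of both groups. No single library of the 6 was needed for the call.

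Zm00001d050214.RefGen_V4 was at 2.13, 2.72 and 1.71 CPM in A_12h, against 18.7, 15.1 and 6.45 CPM in WT_12h. WT_12h replicate 3 lay between the A_12h libraries and the other WT_12h libraries. The means were 2.19 ± 0.508 CPM in A_12h and 13.4 ± 6.32 CPM in WT_12h (SD, n = 3), with a log2 fold change of -2.61 (SE 0.45, adjusted p = 0.00797). Without replicate 3 of both groups it was -2.81 (SE 0.48, adjusted p = 0.0135). This call, too, needed no single library of the 6.

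Zm00001d022085.RefGen_V4 was at 46.9, 44.2 and 32.5 CPM in A_12h, against 190.3, 119.9 and 96.4 CPM in WT_12h. The WT_12h libraries spread over a wide range, and the lowest of them, replicate 3, still exceeded every A_12h library. Its means were 41.2 ± 7.62 CPM in A_12h and 135.5 ± 48.9 CPM in WT_12h (SD, n = 3). The log2 fold change was -1.72 (SE 0.40, adjusted p = 0.0244), and -1.77 (SE 0.49, adjusted p = 0.0496) without replicate 3 of both groups. It lost its call without WT_12h replicate 1 (adjusted p = 0.121), WT_12h replicate 2 (0.0839), A_12h replicate 1 (0.0608), A_12h replicate 2 (0.0641) or A_12h replicate 3 (0.074).

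**Figure D1:**
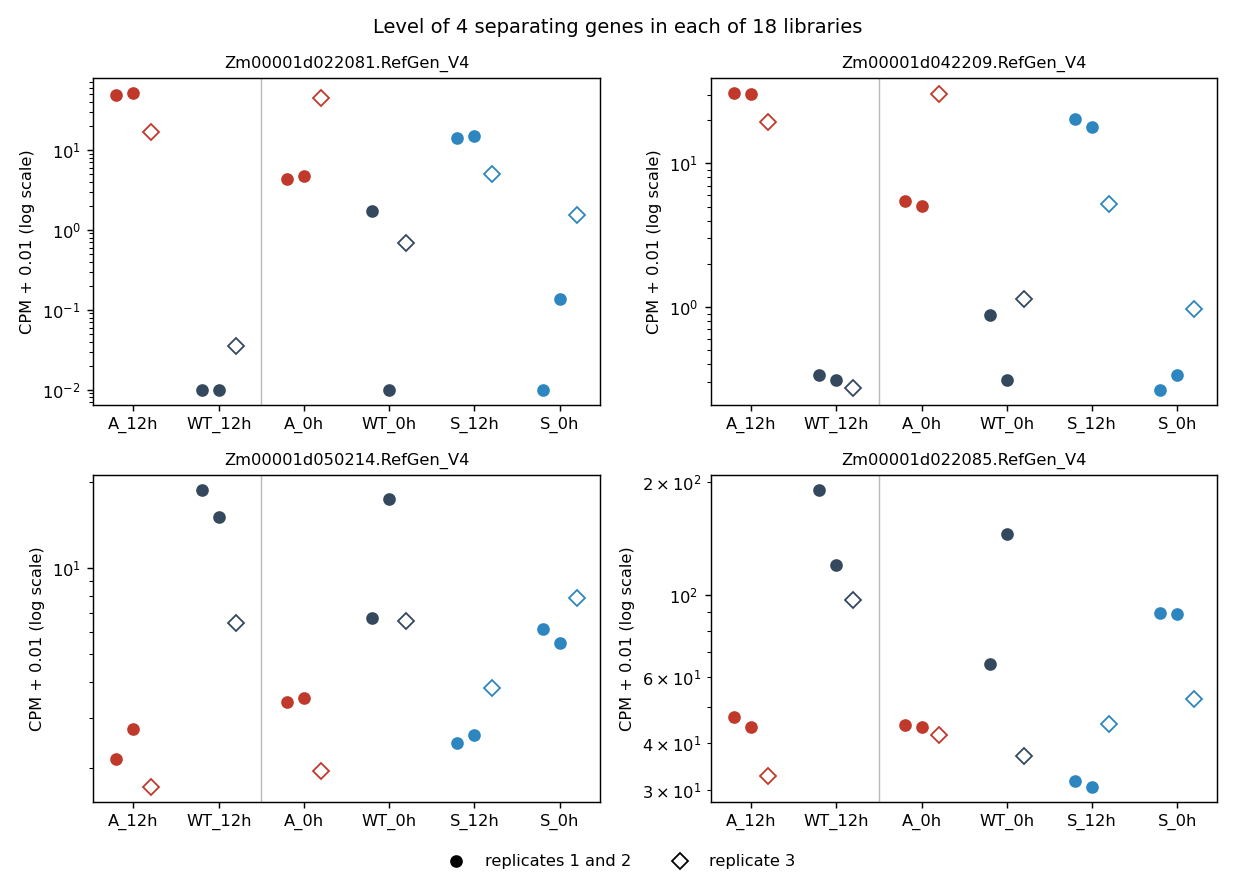
Level of the 4 named genes in each of the 18 libraries, as CPM + 0.01 on a log axis, by group; filled circles are replicates 1 and 2 and open diamonds replicate 3. The upper genes lie between 16.9 and 51.1 CPM in A_12h and under 0.33 CPM in WT_12h, and both lower genes are below every WT_12h library in A_12h.

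The rises were larger than the falls. The 358 higher genes had a median log2 fold change of 0.90 with all libraries and 1.02 without replicate 3 of both groups, and the 310 lower genes had medians of -0.42 and -0.46. The median of all 12578 abundant genes was -0.02. At least 2-fold differences were found in 163 higher and 10 lower genes, at least 4-fold differences in 62 and 1, and at least 8-fold differences in 20 and 0. By contrast 102 of the higher and 243 of the lower genes differed by less than 1.5-fold. As the genes were chosen for this difference, its size is a description of them and no test.

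**Figure D2:**
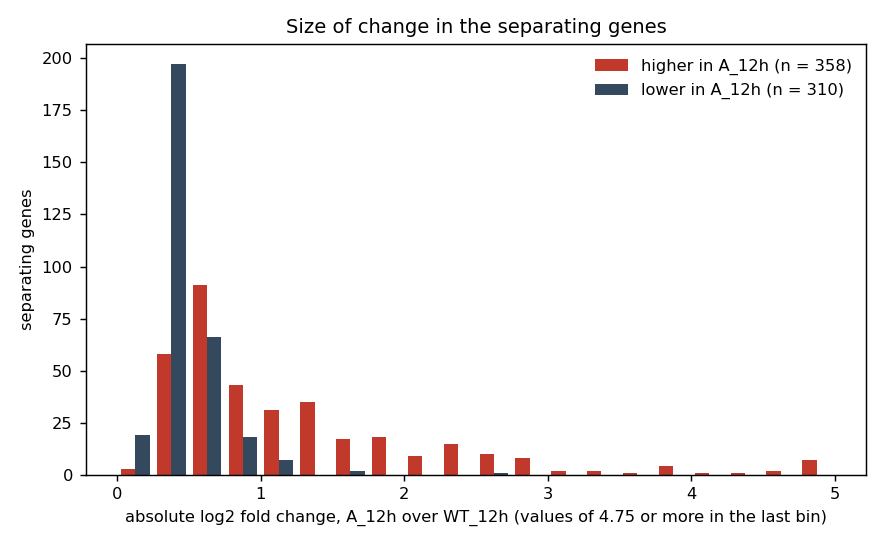
Histogram of the absolute log2 fold change, A_12h over WT_12h with all libraries, for the 358 separating genes that were higher and the 310 that were lower in A_12h. The lower genes gather below 1, where only 10 exceed a 2-fold difference, while 163 of the higher genes do so.

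The 62 genes that were at least 4-fold higher averaged 10.03 to 591.6 CPM in A_12h, with a median of 32.6 CPM, and 0.0083 to 75.0 CPM in WT_12h, with a median of 4.05 CPM. Their adjusted p ran from 0.000598 to 0.0494. In 47 of them A_12h replicate 3 was the lowest of the A_12h libraries. The gap between the groups was small in some: the lowest A_12h library exceeded the highest WT_12h library by a factor of 1.02 in the closest case. The 10 genes that were at least 2-fold lower averaged 2.19 to 91.6 CPM in A_12h and 11.6 to 195.2 CPM in WT_12h, and WT_12h replicate 3 was the lowest WT_12h library in all 10.

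Few of the rises started from under 1 CPM in WT_12h, a limit that lies above the 3-count floor. Of the 358 higher genes, 6 averaged under 1 CPM in WT_12h, 114 between 1 and 10 CPM, 224 between 10 and 100 CPM and 14 at 100 CPM or more. No lower gene averaged under 1 CPM in A_12h, and 14 averaged between 1 and 10 CPM, 188 between 10 and 100 CPM and 108 at 100 CPM or more. In the whole table, 59 genes had more than 3 counts in every A_12h library and at most 3 in every WT_12h library, and 36 genes showed the opposite. Only 5 of the 59 reached a mean of 1 CPM in A_12h, and none of the 36 did so in WT_12h.

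Taken as sets, the higher genes held a larger part of each A_12h library and the lower genes a smaller one. This direction follows from choosing genes without overlap between the groups, so the shares are a description. They took 2.38, 2.39 and 1.97% of the counts in A_12h replicates 1 to 3, against 1.00, 0.973 and 1.12% in WT_12h replicates 1 to 3. The lower genes took 3.89, 3.90 and 3.78% in A_12h, against 5.24, 5.29 and 4.65% in WT_12h. In both sets replicate 3 of each group lay nearer to the opposite group than replicates 1 and 2 did, except that the lower genes took the least in A_12h replicate 3.

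The libraries of a group differed most at replicate 3 within the separating genes as well. For the higher genes, the median absolute log2 ratio between A_12h replicates 1 and 2 was 0.05, and that between replicate 3 and their mean was 0.31. In WT_12h these medians were 0.12 and 0.23. For the lower genes the medians were 0.04 and 0.11 in A_12h, and 0.05 and 0.18 in WT_12h. In 49 of the 358 higher genes A_12h replicate 3 was at least 2-fold below the mean of replicates 1 and 2, and in 9 it was at least 2-fold above it. None of the 310 lower genes differed this much. WT_12h replicate 3 was the highest WT_12h library in 252 of the higher genes and the lowest one in 278 of the lower genes.

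Other abundant genes passed in 1 version only. A further 425 abundant genes without overlap passed with all libraries and failed without replicate 3 of both groups. The direction was the same in all 425, which the lack of overlap with all libraries sets in advance. Their median absolute log2 fold change was 0.52 with all libraries and 0.48 without replicate 3, and their adjusted p without it ran from 0.0502 to 0.737. Conversely, 402 abundant genes passed only without replicate 3, 218 higher and 184 lower in A_12h. In 259 of these the groups overlapped once replicate 3 was included. Over all 402, the median absolute log2 fold change was 0.43 with all libraries and 0.72 without replicate 3.

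**Figure D3:**
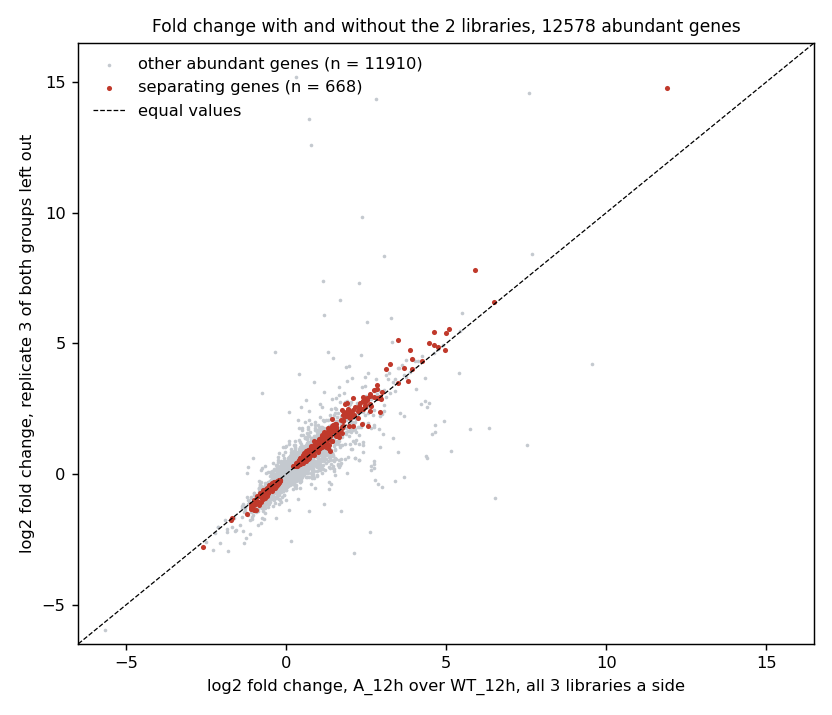
Log2 fold change of A_12h over WT_12h with all 3 libraries a side (horizontal) and without replicate 3 of both groups (vertical) for 12578 genes at 10 CPM or more; the dashed line marks equal values. Most of the 668 separating genes lie along the line, with Zm00001d022081.RefGen_V4 above it at 11.89 and 14.76, while some of the other genes are far from it.

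In many genes with a large difference between replicates 1 and 2 of the groups, a replicate 3 library lay nearer to the opposite group. Choosing genes on replicates 1 and 2 alone favours this, so the counts are a description. When only replicates 1 and 2 were used, 228 genes at 10 CPM or more were at least 4-fold higher in A_12h without overlap (ratio of mean CPM + 0.1). Of these, 125 passed the threshold without replicate 3, and 76 were separating genes. The groups overlapped in 47 of the 228 once replicate 3 was added. In 77 of the 228, A_12h replicate 3 was closer to WT_12h replicates 1 and 2 on the log2 scale. In 74, WT_12h replicate 3 was closer to A_12h replicates 1 and 2, with 10 genes in both counts, and in 87 both replicate 3 libraries stayed on the side of their group. Far fewer genes were at least 4-fold lower in this way, 19 in all, and 13 of them overlapped once replicate 3 was added. In 17 of these 19 WT_12h replicate 3 was closer to A_12h, and 1 was a separating gene, Zm00001d050214.RefGen_V4.

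In air at 0 h, most of these genes had a difference between line A and WT in the same direction, with a smaller median. The 2 comparisons differ in oxygen and duration and may differ in submergence, and these parts cannot be told apart. Of the 358 higher genes, 355 had a positive and of the 310 lower genes 309 had a negative log2 fold change of A_0h over WT_0h, with medians of 0.58 and -0.31. The adjusted p in air was under 0.05 for 96 of the 358 higher genes and 137 of the 310 lower genes, where 3.32% of all genes were called, 1.5% higher and 1.82% lower. In 251 of the higher and 275 of the lower genes the A_0h and WT_0h libraries were fully apart, against 25.8% of all genes tested in either direction. Among the genes at least 4-fold higher under hypoxia, 14 of 62 were called higher in air. The levels of the air libraries were no criterion for choosing the genes, but these libraries were in the fit, and their spread entered the dispersions and adjusted p values that chose them, which favours genes with little spread in air. Since the genes were chosen for their difference under hypoxia, a smaller one in air is also favoured by the choice. Moreover, A_0h replicate 3 resembled A_12h and WT_0h replicate 2 resembled WT_12h. In the fit without the 6 libraries, the direction was shared by 302 of the 358 higher and 299 of the 310 lower genes. There, 210 of the higher genes were called higher (24.8% of all genes) and 18 lower, and 235 of the lower genes were called lower (24.4%) and 2 higher.

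The difference between lines under hypoxia was then tested against that in air. With all libraries, edgeR called 0 of 20945 genes (0%) for this interaction, with 1089 at an unadjusted p under 0.05 (5.20%), while limma-voom called 0 and DESeq2 called 16. By edgeR with all libraries, none of the separating genes was therefore called. Without the 6 libraries the result was different, with 10055 genes called (47.8%). The interaction contains the difference between A_12h and WT_12h for which the separating genes were chosen, so no count of them is given for it, and their values in that fit are a description. The median log2 fold changes of the higher genes were then 1.02 under hypoxia and 0.28 in air, and those of the lower genes were -0.45 under hypoxia and -0.25 in air.

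The named genes show these patterns by library. In A_0h replicates 1 to 3, Zm00001d022081.RefGen_V4 measured 4.28, 4.73 and 44.7 CPM, against 1.71, 0 and 0.682 CPM in WT_0h replicates 1 to 3. Its difference in air did not pass the threshold (log2 fold change 4.48, SE 1.40, adjusted p = 0.0854), and A_0h replicate 3 was near the level of A_12h replicates 1 and 2. Zm00001d042209.RefGen_V4 measured 5.49, 5.06 and 30.5 CPM in A_0h, against 0.869, 0.301 and 1.13 CPM in WT_0h (log2 fold change 4.16, SE 0.79, adjusted p = 0.0128). Every A_0h library was above every WT_0h library. The interaction of these genes was 7.41 (adjusted p = 0.689) and 2.34 (adjusted p = 0.689) on the log2 scale.

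Zm00001d050214.RefGen_V4 measured 3.40, 3.51 and 1.94 CPM in A_0h, against 6.71, 17.5 and 6.55 CPM in WT_0h. Its lower level in line A passed the threshold in air too (log2 fold change -1.80, SE 0.43, adjusted p = 0.0375). Zm00001d022085.RefGen_V4 measured 44.8, 44.0 and 41.9 CPM in A_0h, against 65.1, 145.0 and 37.0 CPM in WT_0h. Here WT_0h replicate 3 was below the A_0h libraries and the groups overlapped (log2 fold change -0.92, SE 0.39, adjusted p = 0.18).

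To place every library on the difference between the groups, each separating gene was scaled so that the mean of WT_12h replicates 1 and 2 was 0 and that of A_12h replicates 1 and 2 was 1, on log2(CPM + 0.1). These 4 libraries set the scale and the genes were chosen on A_12h and WT_12h, so positions are a description. For the higher genes the median position was 0.84 in A_12h replicate 3 and 0.21 in WT_12h replicate 3. It was 0.56, 0.54 and 0.98 in A_0h replicates 1 to 3, against 0.24, 0.03 and 0.19 in WT_0h replicates 1 to 3. Line S reached 0.83, 0.85 and 0.57 in S_12h and 0.19, 0.20 and 0.23 in S_0h. The A_12h and S_12h libraries and A_0h thus lay in the upper part of the scale, and WT at both times and S_0h in the lower part.

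For the lower genes the median position was 1.07 in A_12h replicate 3 and 0.39 in WT_12h replicate 3. It was 0.85, 0.82 and 1.01 in A_0h, against 0.32, 0.02 and 0.20 in WT_0h. S_12h libraries were at 1.00, 1.03 and 0.83 and S_0h libraries at 0.41, 0.37 and 0.30. A_0h replicates 1 and 2 were farther towards A_12h in the lower genes than in the higher genes. The levels in line S were no criterion for choosing these genes, but the spread of S_12h and S_0h entered the fit that chose them, and S_12h and A_12h are both set here against the same WT_12h libraries.

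**Figure D4:**
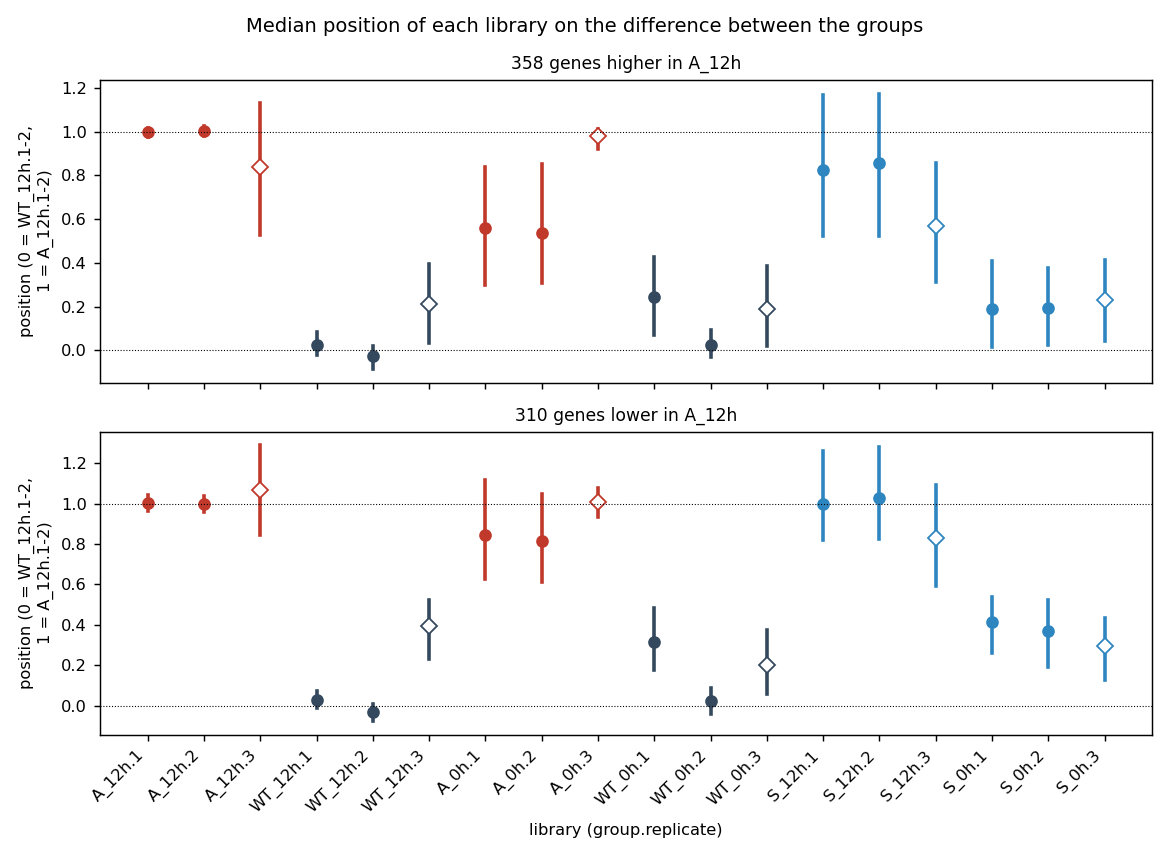
Position of each library between WT_12h replicates 1 and 2 (0) and A_12h replicates 1 and 2 (1); points are medians over 358 higher genes (top) and 310 lower genes (bottom), bars span the quartiles, and open diamonds are replicate 3. A_12h replicate 3 is at 0.84 and 1.07 and WT_12h replicate 3 at 0.21 and 0.39.

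The levels of the named genes in line S under hypoxia stand beside those of line A as follows. Zm00001d022081.RefGen_V4 was at 13.9, 14.8 and 4.93 CPM in S_12h replicates 1 to 3, all below the 16.9 CPM of A_12h replicate 3, with S_12h replicates 1 and 2 near it and S_12h replicate 3 near A_0h replicates 1 and 2. Zm00001d042209.RefGen_V4 was at 20.5, 17.9 and 5.16 CPM in S_12h. Zm00001d050214.RefGen_V4 was at 2.45, 2.60 and 3.81 CPM and Zm00001d022085.RefGen_V4 at 31.6, 30.5 and 45.1 CPM in the same libraries. These differences between lines A and S were not tested.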

How the data were processed

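RNA sequencing of 18 libraries was deposited by the authors as 1 table of whole-number read counts per gene, not normalised, with 28724 gene IDs. The tools and build named per the submitters' processing notes are HISAT2 and featureCounts on B73 RefGen_v4. Versions, strand setting and the handling of reads with several matches are not stated, so near-identical, overlapping and antisense genes are uncertain. Groups and replicate numbers come from the titles, which match the columns.

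After a filterByExpr filter (20945 genes kept, 7779 removed) and TMM scaling, edgeR 4.0.16 (with limma 3.58.1, under R 4.3.3) fitted a robust quasi-likelihood model of the 6 group means to all 18 libraries (12 residual degrees of freedom), or to 16 without A_12h replicate 3 and WT_12h replicate 3 (10 degrees of freedom). Calls have a Benjamini-Hochberg adjusted p under 0.05 over all genes tested. SE is the absolute log2 fold change over the square root of F. CPM use TMM-scaled library sizes. The 3-count floor in CPM uses total counts instead. So does the 1 CPM mean applied to genes at or under that floor in every library of a group. No 2 of the 6 libraries agreed within sampling noise (lowest chi-square per gene 4.29 over 15 pairs).

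The genes, lists and alternatives were chosen with earlier results of these data known. With no names for the IDs, gene lists by name could not be applied, and the naming rule took, per direction, the 2 separating genes with the largest log2 fold change. Alternatives were DESeq2 1.42.0, limma-voom, RLE scaling, no or a stricter low-count filter, a block for the replicate number, a fit of the 2 groups alone, and leaving out libraries. Because the reads carry no molecular identifiers, the interval and the floors describe counting error alone.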

Additional observations from a re-analysis of the deposited data

How the results depend on the processing

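DESeq2 called 3147 genes between A_12h and WT_12h (1808 higher, 1339 lower), 3322 without replicate 3 of both groups, 16 for the interaction with air, and gave 1537 separating genes. Without the 6 libraries whose 2 nearest libraries belong to another group these numbers were 9884 (5425 higher, 4459 lower), 9884, 10055 and 7131. A fit of the 2 groups alone called 305 genes lower (1034 in all, 70.5% of them higher against 60.0%) and 9942 without replicate 3 of both groups, and gives no interaction. Using 2 libraries a side for every criterion gave 1091 separating genes. The cause of these shifts was not tested. RLE scaling, limma-voom and both filters kept every count within 1.5 times. Leaving out 1 of the 6 libraries gave 86 to 1706 calls (53 to 989 higher, 33 to 717 lower), 13 to 36 without replicate 3 of both groups, where the lone library of a group was assumed to vary like the other groups, 0 for the interaction and 10 to 816 separating genes.

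The labels do not say whether replicate numbers pair the libraries. Deviations from the group means of same-numbered A_12h and WT_12h libraries correlated at -0.02, 0.02 and -0.01. These values cannot exclude pairing, because replicate 3, which stood apart in each group, weighs on all the deviations. With the replicate number as a block, 577 genes were called (344 higher, 233 lower), 806 without replicate 3 of both groups, and 306 genes were separating.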

Other observations

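The rows of the table follow the numbers in the gene IDs, and neighbouring rows gave a check of whether separating genes lay side by side. In 22 of the 668 separating genes, or 3.29%, the next gene tested also separated the groups, where 3.19% of all genes tested were separating genes, and 11 of these 22 neighbours had the same direction. The gene with the largest rise, Zm00001d022081.RefGen_V4, and one of those with the largest fall, Zm00001d022085.RefGen_V4, are 4 rows apart. Of the 3 rows between them, none was a separating gene. The first was nearly undetected, at 0.111, 0.164 and 0 CPM in A_12h and 0, 0.0299 and 0.0249 CPM in WT_12h. The second did not pass the threshold, at 87.6, 88.1 and 70.6 CPM in A_12h and 83.9, 89.4 and 80.8 CPM in WT_12h (log2 fold change -0.04, adjusted p = 0.888). The third was at 50.7, 55.7 and 19.5 CPM in A_12h and 6.09, 4.22 and 12.8 CPM in WT_12h and missed the threshold in both versions (log2 fold change 2.45, adjusted p = 0.0729, and 0.0562 without replicate 3 of both groups). These rows were looked at after the values of the named genes were seen, and whether any of these genes share reads was not tested.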
